A study of Mus musculus with 6 samples.

Results

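A set of 10 genes of plasma membrane repair was followed in regenerating mouse muscle: the ferlins Dysf and Myof, the annexins Anxa1, Anxa2, Anxa5 and Anxa6, the tripartite motif gene Trim72, the muscle caveolin Cav3, the muscle calpain Capn3 and the caveola ATPase gene Ehd2. They were chosen by name, for their known roles in sealing membrane wounds. All 10 members were found among the 52369 genes measured, matched by Ensembl identifier to the symbols of the GENCODE M21 annotation. Expression was measured by RNA sequencing of polyadenylated RNA from tibialis anterior muscle of C57BL/6 mice labelled 6 weeks old. The 3 libraries called L7 were labelled as overexpressing Linc-smad7, a long non-coding RNA, and the 3 control libraries as control. Both groups share every other treatment in the labels. The muscle was injured at 5 weeks of age with 50 µl of 10 µM cardiotoxin, which destroys fibres and so sets off their regeneration. It was then injected several times, among them on days 2 and 4, with 6.25 µg of the expression plasmid pcDNA3.1 in an in vivo transfection reagent, and was taken on day 7. The labels name no promoter or insert and do not say what plasmid the controls received, nor how many fibres took it up. Linc-smad7 itself was not analysed here. They give neither the animals' sex nor whether each library came from a separate animal, so the p-values measure only the spread between these libraries.

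A muscle fibre tears its membrane when it contracts, and calcium entering through the tear starts a repair that closes it. Ferlins are large membrane-anchored proteins with several calcium-binding C2 domains that help vesicles fuse, annexins bind acidic phospholipids when calcium rises and build a cap over the wound, and Trim72, also called MG53, helps to bring vesicles there. Loss of dysferlin, calpain 3 or caveolin 3 causes muscle disease in humans.

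Values are FPKM (fragments counted per kilobase of gene and scaled to library size) as the authors deposited them. They allow for gene length and library size, but a shift of the typical gene between libraries remains in them, as given below. The libraries held 19420012 to 24663153 reads in genes, and each member had between 1433 and 13976 reads in each library. Genes annotated on the opposite strand within a member's span had at most 38 reads in a library, and the library kit is not stated to keep the strand. L7 replicate 3 stood apart: its correlation over genes with the other libraries was at most 0.951, while every other library had one of at least 0.982. A median of ratios factor, which sets the typical gene level across libraries, was 0.774 for it and 1.03 to 1.10 for the other libraries. Differences are therefore given on the FPKM as deposited, on the median of ratios scale, and on that scale without L7 replicate 3. Reads of Xist and of Y-linked genes put L7 replicate 1 and control replicates 1 and 3 on the male side and the other 3 libraries on the female side.

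In each group Anxa2, Anxa5 and Anxa1 had the highest mean levels of the members and the ferlins the lowest. In L7 libraries the order of mean levels ran Anxa2, Anxa5, Anxa1, Trim72, Anxa6, Cav3, Ehd2, Capn3, Myof and Dysf. In control libraries the order was the same except that Anxa6 came before Trim72. Neighbours whose libraries overlapped in L7 were Anxa2 with Anxa5, Anxa5 with Anxa1, Anxa1 with Trim72, Ehd2 with Capn3, and Myof with Dysf. In control libraries the neighbours that overlapped were Anxa5 with Anxa1 and Anxa6 with Trim72. On FPKM as deposited the steadiest members were Dysf and Anxa6, with coefficients of variation of 2.57% and 2.76% in L7 and 5.43% and 3.79% in control. The most variable were Myof in L7 (50.4%) and Anxa1 in control (27.3%). On the median of ratios scale Dysf, Anxa6 and Anxa5 averaged 21.1 ± 3.67, 189 ± 27.3 and 309 ± 28.7 in L7 libraries (SD, n = 3). The ranking of the steadiest members thus depends on the scale.

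**Figure D1:**
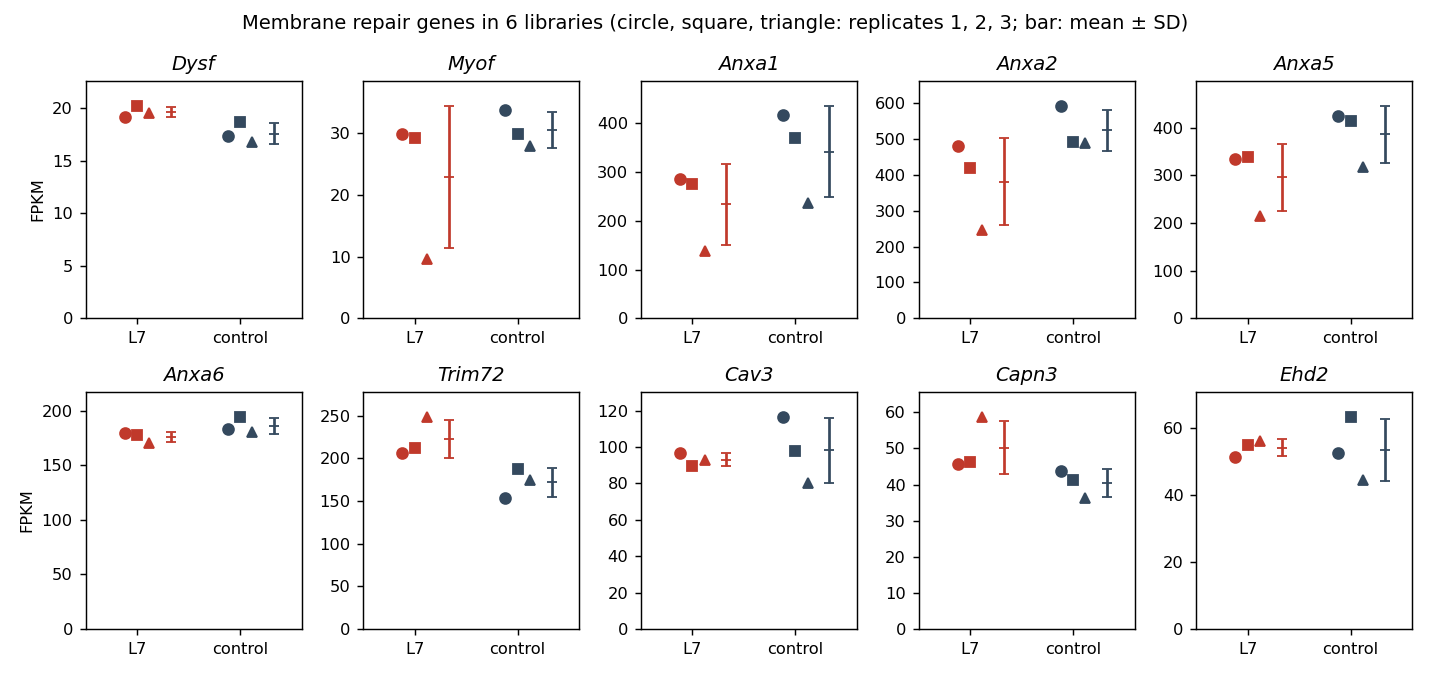
FPKM of the 10 membrane repair genes in each library, with L7 on the left and control on the right of each panel; the bars give mean ± SD (n = 3 each) and the axes start at 0. All L7 values of Dysf, Trim72 and Capn3 lie above all control values, all L7 values of Anxa2 and Anxa6 lie below, and the triangle of L7 replicate 3 is far below the others for Myof.

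Of the 10 members, 3 (Dysf, Trim72 and Capn3) had every L7 value above every control value, where 5.49% of the 14788 genes tested did. Another 2 (Anxa2 and Anxa6) had every L7 value below, where 13.7% of all genes did, and in the other 5 the groups overlapped. Counting either direction, 19.2% of all genes did not overlap. By sign 4 members were higher and 6 lower, where 29.2% of all genes were higher, but on the median of ratios scale 6 were higher and 4 lower, where 49.6% of all genes were higher. Without L7 replicate 3 on that scale 4 were higher and 6 lower, where 50.1% of all genes were higher. No member passed limma at an adjusted p under 0.05, the background being 0% of genes called, and the members' adjusted p-values lay between 0.58 and 0.919. At an unadjusted p under 0.05 there were 0 members, against 1.65% of all genes higher and 4.25% lower. The median log2 difference (L7 minus control) of the members was -0.07, against -0.15 over all genes tested. On the median of ratios scale it was 0.10 against -0.0029, and there 3 members had every L7 value above and 1 had every L7 value below, the backgrounds being 9.41% and 8.87%.

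Dysferlin, the calcium sensor that docks vesicles at a membrane wound, is encoded by Dysf (ENSMUSG00000033788, chr6:84008590-84211060, plus strand, mm10). Its FPKM was 19.1, 20.2 and 19.6 in L7 libraries, against 17.3, 18.6 and 16.8 in control libraries. The groups did not overlap, though the highest control value lay close to the lowest L7 value. Dysf averaged 19.6 ± 0.505 FPKM in L7 and 17.6 ± 0.955 FPKM in control libraries (SD, n = 3 each). The log2 difference was 0.15 ± 0.13 (SE; 95% interval -0.15 to 0.45), with an adjusted p of 0.591 by limma. The exact permutation test gave p = 0.1, two-sided, the smallest that 3 libraries against 3 allow. On the median of ratios scale the difference was 0.32 ± 0.14 (SE), and 0.19 ± 0.09 (SE) without L7 replicate 3.

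Myoferlin, the ferlin of dividing and fusing myoblasts, is encoded by Myof (ENSMUSG00000048612, chr19:37899036-38043577, minus strand). Its FPKM was 29.8, 29.1 and 9.53 in L7 libraries, against 33.8, 29.8 and 28.0 in control libraries. L7 replicates 1 and 2 lay within the control range, and L7 replicate 3 was at 0.312 of the control mean. The log2 difference of Myof was -0.56 ± 0.40 (SE), with a limma adjusted p of 0.58, and it was -0.01 ± 0.09 (SE; 95% interval -0.23 to 0.21) on the median of ratios scale without L7 replicate 3. Most of the difference between the group means of Myof was thus in 1 library.

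Within a library the ratio of 2 genes does not depend on scaling between libraries. The ratio of Dysf to Myof was 0.643, 0.692 and 2.05 in L7 libraries, against 0.513, 0.625 and 0.60 in control libraries. Each L7 library was above each control library, but only L7 replicate 3 had more Dysf than Myof. The mean log2 ratio differed by 0.75 between L7 and control libraries, and by 0.21 without L7 replicate 3. The ratio of Dysf to Anxa2 was 0.0399, 0.0482 and 0.0798 in L7 libraries, against 0.0293, 0.0378 and 0.0343 in control libraries. The ratio of Capn3 to Anxa2 was 0.0955, 0.111 and 0.239 in L7 libraries, against 0.0741, 0.0837 and 0.0742 in control libraries. The mean log2 ratios of these pairs differed by 0.67 and 0.82, and by 0.38 and 0.41 without L7 replicate 3. These 3 ratios are given as values with no test. Every L7 value of Dysf and Capn3 lay above, and of Anxa2 below, every control value. The ratios to Anxa2 therefore had to separate and add no further evidence. Myof alone overlapped between the groups.

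**Figure D2:**
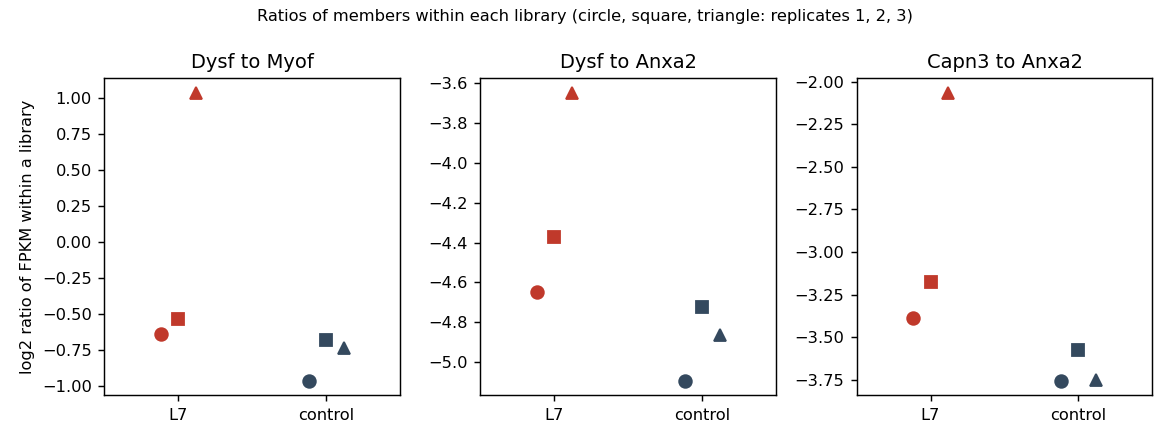
Log2 ratio of the FPKM of 2 members within each library, one panel per pair, L7 on the left and control on the right; circles, squares and triangles are replicates 1, 2 and 3. Every L7 point lies above every control point in each panel, and L7 replicate 3 (triangle) is the highest, with a log2 ratio of Dysf to Myof of 1.04. In the panels with Anxa2 this separation follows from that of the single genes.

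Among the annexins, Anxa2 (ENSMUSG00000032231, chr9:69453620-69491795, plus strand) makes the annexin that pairs with the small protein S100a10 and is drawn to membrane wounds with dysferlin. Its FPKM was 479, 418 and 245 in L7 libraries, against 591, 493 and 489 in control libraries. All L7 libraries were lower, with L7 replicate 1 just below the lowest control library and L7 replicate 3 far below it. The mean was 381 ± 121 FPKM in L7 and 524 ± 57.8 FPKM in control libraries (SD, n = 3 each). The log2 difference was -0.51 ± 0.27 (SE; 95% interval -1.15 to 0.13), with an adjusted p of 0.58 by limma and p = 0.1 by the exact permutation test. It was -0.19 ± 0.13 (SE) on the median of ratios scale without L7 replicate 3.

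Anxa1 (ENSMUSG00000024659, chr19:20373428-20390944, minus strand), which encodes a repair annexin that leukocytes also make as a mediator that ends inflammation, was at 287, 276 and 139 FPKM in L7 libraries, against 417, 371 and 238 FPKM in control libraries. Control replicate 3 was lower than L7 replicates 1 and 2, so the groups overlapped. Its log2 difference was -0.58 ± 0.34 (SE) with a limma adjusted p of 0.58, and -0.20 ± 0.22 (SE) on the median of ratios scale without L7 replicate 3. Anxa5 (ENSMUSG00000027712, chr3:36448923-36475894, minus strand), whose protein forms a lattice on exposed phosphatidylserine, was at 335, 339 and 214 FPKM in L7 libraries, against 425, 415 and 318 FPKM in control libraries. Here too control replicate 3 lay below L7 replicates 1 and 2. The log2 difference of Anxa5 was -0.40 ± 0.24 (SE) with a limma adjusted p of 0.58, and -0.15 ± 0.14 (SE) on the median of ratios scale without L7 replicate 3.

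Anxa6 (ENSMUSG00000018340, chr11:54979108-55033445, minus strand) encodes a protein that has a doubled annexin core and forms part of the repair cap. On FPKM as deposited Anxa6 varied less than the other annexin members. On the median of ratios scale it averaged 189 ± 27.3 in L7 libraries (SD, n = 3), so this trait depends on the scale. Its FPKM was 179.6, 178 and 170.5 in L7 libraries, against 184, 194 and 181 in control libraries. The gap between the groups was narrow, from 179.6 to 181 FPKM. The log2 difference was -0.08 ± 0.13 (SE; 95% interval -0.40 to 0.23) with a limma adjusted p of 0.755. It turned to 0.09 on the median of ratios scale, where its groups overlapped, and was -0.02 on that scale without L7 replicate 3.

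Summed over the 12 annexin genes measured, annexin FPKM came to 1509, 1424 and 900.0 in L7 libraries, against 1849, 1686 and 1445 in control libraries. The groups overlapped, with L7 replicate 1 above control replicate 3. The 4 annexin members made up 84.9%, 85.1% and 85.4% of that sum in L7 libraries, against 87.4%, 87.4% and 84.8% in control libraries. The share of Anxa6 was 11.9%, 12.5% and 18.9% in L7 libraries, against 9.94%, 11.5% and 12.5% in control libraries. L7 replicate 3 thus had the lowest annexin sum and the largest share of Anxa6 among the 6 libraries.

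Trim72 (ENSMUSG00000042828, chr7:128003949-128011033, plus strand), the muscle ubiquitin ligase gene whose protein carries vesicles to a wound, had the largest positive difference of the 10 members. Its FPKM was 207, 213 and 248 in L7 libraries, against 154, 187 and 175 in control libraries. Every L7 library was above every control library. The mean was 223 ± 22.6 FPKM in L7 and 172 ± 16.9 FPKM in control libraries (SD, n = 3 each). The log2 difference was 0.37 ± 0.16 (SE), with p = 0.0504 by limma before adjustment and 0.58 after it, and p = 0.1 by the exact permutation test. It was 0.54 ± 0.22 (SE) on the median of ratios scale, with an adjusted p of 0.616 by limma (0.0428 before adjustment). Without L7 replicate 3 it was 0.32 ± 0.13 (SE), with an adjusted p of 0.786 by limma. The authors' deposited table gave Trim72 a fold of 1.49 (L7 over control) with p = 0.075 before adjustment and 1 after it, where that table put 0.514% of the genes tested higher at p under 0.05 and called 0.0609% after adjustment. The authors' deposited table gave Dysf a fold of 1.27, Capn3 1.44 and Anxa1 0.752, all with an adjusted p of 1.

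Capn3 (ENSMUSG00000079110, chr2:120456019-120504913, plus strand) encodes the muscle-specific calpain, a calcium-dependent protease bound to titin in the sarcomere. Its FPKM was 45.8, 46.3 and 58.7 in L7 libraries, against 43.8, 41.3 and 36.3 in control libraries. The groups did not overlap, and L7 replicate 3 was the highest library. The log2 difference was 0.30 ± 0.16 (SE; 95% interval -0.07 to 0.67), with an adjusted p of 0.58 by limma and p = 0.1 by the exact permutation test. It was 0.47 ± 0.22 (SE) on the median of ratios scale and 0.22 ± 0.09 (SE) without L7 replicate 3. Its span overlaps the gene Ganc on the same strand, which had 438 to 812 reads where Capn3 had 1686 to 2614, and the counting rule for shared reads is not stated.

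The caveola genes among the members lay close together in both groups. Cav3 (ENSMUSG00000062694, chr6:112459505-112472872, plus strand), the caveolin of muscle fibres, was at 96.8, 89.4 and 92.8 FPKM in L7 libraries, against 116, 97.6 and 80.3 FPKM in control libraries. All L7 values lay inside the control range. The log2 difference was -0.06 ± 0.17 (SE; 95% interval -0.46 to 0.34) with a limma adjusted p of 0.857, and it turned to 0.11 on the median of ratios scale. Ehd2 (ENSMUSG00000074364, chr7:15946958-15967567, minus strand), whose protein rings the neck of caveolae, was at 51.4, 55.0 and 56.0 FPKM in L7 libraries, against 52.4, 63.2 and 44.5 FPKM in control libraries. These values overlapped as well. The log2 difference of Ehd2 was 0.03 ± 0.16 (SE; 95% interval -0.35 to 0.41) with a limma adjusted p of 0.919.

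**Figure D3:**
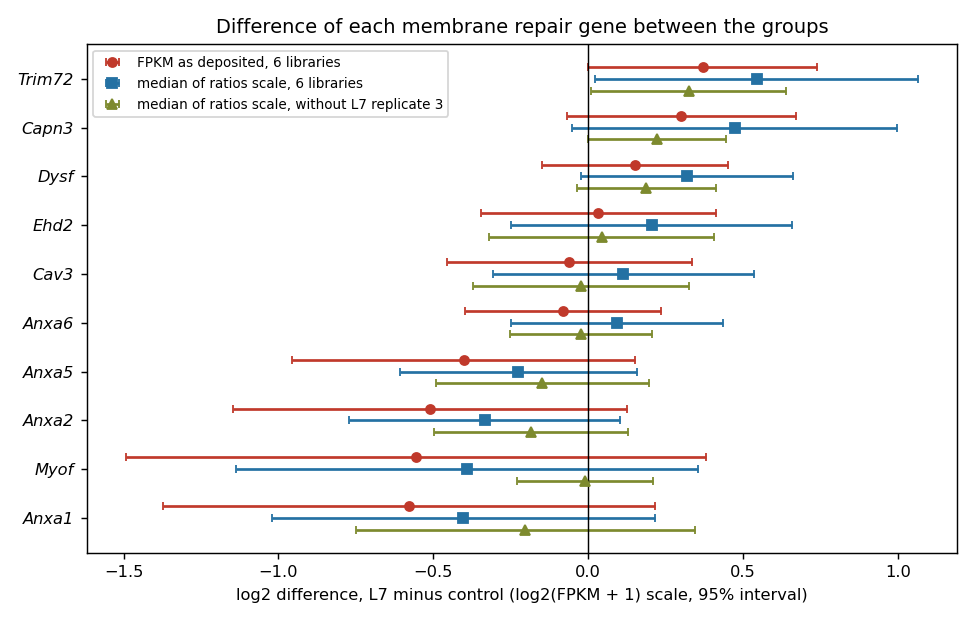
Log2 difference (L7 minus control, on the log2(FPKM + 1) scale) of each member with its 95% interval from limma, on FPKM as deposited, on the median of ratios scale, and on that scale without L7 replicate 3. Trim72 is at the top with 0.37 on FPKM as deposited, Anxa1 is at the bottom with -0.58, and the point of Myof moves to -0.01 when L7 replicate 3 is left out.

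The miRNA miR-125b, named in the series title, binds messages through its seed, bases 2 to 8 of the mature strand. The sequence is shown because the members' 3 prime UTRs were searched for its complement (RefSeq, GRCm38.p6; the seed is in capitals, and the loci Mir125b-1 at chr9:41581940-41581961 and Mir125b-2 at chr16:77646279-77646300, both on the plus strand, give the same mature strand).
miR-125b-5p: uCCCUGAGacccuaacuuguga
The match CTCAGGG was present in the longest annotated 3 prime UTR of 1 of the 10 members, Ehd2, where 17.0% of the 12735 genes tested that have one hold it. Ehd2 holds it at 2 places, in a UTR of 3283 bases, against 229 to 693 bases for the other members. The sites lie at bases 1412 and 3029 of that UTR, on the minus strand of chromosome 7, and are shown on the message strand with the match in capitals.
Ehd2 site 1: agaaaagttaCTCAGGGccctccccac
Ehd2 site 2: ggtgtaacttCTCAGGGgtacaccttg
The FPKM of this gene overlapped between the groups, as given above. A match is a description of the letters and does not show binding.

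Promoter windows of 300 bases, from 250 before to 50 after a RefSeq start (GRCm38.p6), were found for 9 of the 10 members (not for Anxa6), with 11 windows in all. They were searched on both strands for the E-box CAGCTG, the AP-1 motif TGANTCA, the TATA motif TATAAA, and the MEF2 and CArG motifs, none of which overlapped another in the members. Windows are shown for Capn3 and Trim72, which were higher in every L7 library, and for Anxa2, which was lower in every one. Dysf was also higher in every L7 library, and its windows, not shown, hold none of these motifs. Capitals mark the motif matches.
Capn3 (chr2:120463343-120463642, plus strand): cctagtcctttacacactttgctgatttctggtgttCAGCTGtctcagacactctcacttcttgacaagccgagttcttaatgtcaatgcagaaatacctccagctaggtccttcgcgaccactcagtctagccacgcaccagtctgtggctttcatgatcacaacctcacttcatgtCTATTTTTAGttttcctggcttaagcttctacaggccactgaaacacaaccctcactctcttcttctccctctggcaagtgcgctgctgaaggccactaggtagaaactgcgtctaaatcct
Trim72 (chr7:128004128-128004427, plus strand): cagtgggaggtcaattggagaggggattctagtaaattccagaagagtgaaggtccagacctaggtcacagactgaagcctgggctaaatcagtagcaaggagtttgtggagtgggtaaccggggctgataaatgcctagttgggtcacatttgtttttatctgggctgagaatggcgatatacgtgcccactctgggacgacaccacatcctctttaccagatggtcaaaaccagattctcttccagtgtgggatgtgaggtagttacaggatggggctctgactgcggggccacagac
Anxa2 (chr9:69453433-69453732, plus strand): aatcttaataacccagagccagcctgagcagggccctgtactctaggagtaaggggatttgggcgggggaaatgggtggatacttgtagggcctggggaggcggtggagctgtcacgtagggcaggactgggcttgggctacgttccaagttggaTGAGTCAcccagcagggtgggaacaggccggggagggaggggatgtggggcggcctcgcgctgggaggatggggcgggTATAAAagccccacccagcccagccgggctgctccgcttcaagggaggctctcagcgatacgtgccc
Capn3 has 2 windows, of which the first is shown. In it the E-box CAGCTG starts 214 bases before the start of transcription and the MEF2 match 72 bases before it. The second Capn3 window has CAGCTG at base 28 after its own start and no MEF2 match. In the Anxa2 window the AP-1 match starts 95 bases and the TATA match 17 bases before the start, and the Trim72 window holds none of the 5 motifs. CAGCTG was present in windows of Capn3, Cav3 and Ehd2, in 4 of the 11 member windows, and in 16.3% of all 32851 windows. MEF2 was present in Capn3 and in 3.19% of all windows, TGANTCA in Anxa2 and in 7.81%, TATAAA in Anxa1 and Anxa2 and in 13.6%, and CArG in Anxa5 and in 1.63%. Among the 13391 windows of genes tested the shares were 15.9% for CAGCTG, 1.99% for MEF2, 5.47% for TGANTCA, 7.67% for TATAAA and 1.31% for CArG. No match says only that these letters are not in the window.

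Marker genes of the tissue were read beside the members. Fibre markers (Acta1, Mylpf and others) were present in every library, so each held skeletal muscle, and all 8 were higher in L7. These markers do not tell which muscle it was. Their summed FPKM was 30532, 32783 and 86600.3 in L7 libraries, against 20175, 27654 and 26389.7 in control libraries, so L7 replicate 3 stood far above the rest. Actc1, a fetal actin gene of regenerating fibres, was at 3398, 2817 and 3473 FPKM in L7 libraries, against 1978, 2265 and 1464 FPKM in control libraries, so these groups did not overlap. Myh8, the perinatal myosin gene, was at 552, 520.3 and 266 FPKM in L7 libraries, against 349.9, 443 and 290.2 FPKM in control libraries. The 4 markers of regenerating fibres summed to 3846 to 4486 FPKM in L7 libraries, against 2127 to 3128 FPKM in control libraries, with 2 of 4 higher, and 3 of 4 on the median of ratios scale. Actc1 made up most of this sum in every library. Myog and Myh3 had log2 differences of -0.45 and -0.02 on FPKM as deposited, and the groups of Myog, Myh3 and Myh8 overlapped. Macrophage and monocyte markers, led by Lyz2 and C1qa, summed to 3728, 2989 and 1710.0 FPKM in L7 libraries, against 2741, 2444 and 3509 FPKM in control libraries. By sign 7 of these 8 were lower in L7 on FPKM as deposited, where 29.2% of all genes were higher, but 4 of 8 on the median of ratios scale and 2 of 8 without L7 replicate 3 on that scale. L7 replicates 1 and 2 lay in or above the control range. Fibroblast and fibro-adipogenic markers, led by Col1a1 and Col3a1, summed to 10737 to 15653 FPKM in L7 libraries, against 12492 to 16640.5 FPKM in control libraries, with 5 of 6 lower on FPKM as deposited, 2 of 6 on the median of ratios scale and 5 of 6 without L7 replicate 3 on that scale. Smooth muscle and pericyte markers, led by Acta2 and Rgs5, summed to 215 to 342 FPKM in L7 libraries, against 251 to 527 FPKM in control libraries, with 2 of 4 lower, and 1 of 4 on the median of ratios scale and 3 of 4 without L7 replicate 3 on that scale. 

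Among the remaining markers the endothelial sums overlapped and the adipocyte sums, at low levels, did not. Endothelial markers, led by Cdh5 and Pecam1, summed to 179.9 to 186 FPKM in L7 libraries, against 163 to 204 FPKM in control libraries, with 2 of 5 lower, and 0 of 5 on the median of ratios scale. Of 4 adipocyte markers only Adipoq passed the filter on low values, and their sum was 2.15 to 5.38 FPKM in L7 libraries, against 0.388 to 1.59 FPKM in control libraries. L7 replicate 3 was the library with most fibre markers and fewest macrophage markers. On FPKM as deposited Trim72 and Capn3 were highest, and Myof and the 4 annexin members lowest, in that library. On the median of ratios scale Anxa6 was instead highest there, at 220 against at most 184 in the other libraries. Dysf, Cav3 and Ehd2 were also highest there on that scale. The part of these cell types in the members' differences was not tested, and in bulk tissue fewer cells of a type and less RNA per cell cannot be told apart.

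**Figure D4:**
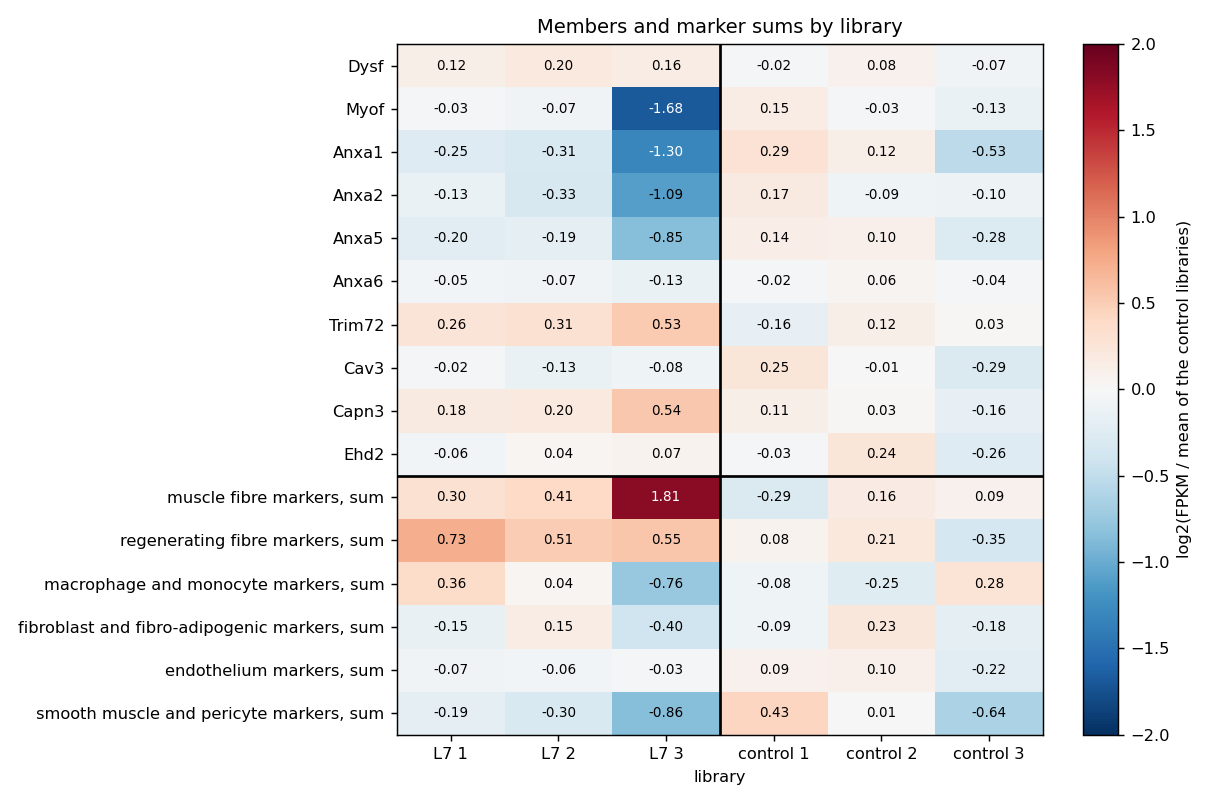
Log2 of the FPKM of each member, and of the summed FPKM of 6 marker lists, over the mean of the control libraries, by library, with L7 on the left; red is higher and blue lower. In the column of L7 replicate 3 Myof is at -1.68 and Anxa1 at -1.30 while Trim72 is at 0.53, Capn3 at 0.54 and the fibre marker sum at 1.81.

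Because the groups held unequal numbers of male and female libraries, the differences were also taken within each side. Among the male libraries (1 L7, 2 control) the log2 difference of Trim72 was 0.33, and among the female ones (2 L7, 1 control) it was 0.30. For Capn3 these were 0.20 and 0.33, and for Dysf 0.16 and 0.09. For Anxa2 they were -0.16 and -0.62, and for Myof -0.04 and -0.79, the female side holding L7 replicate 3. For Anxa1 they were -0.13 and -0.92, for Anxa5 -0.13 and -0.62, and for Anxa6 -0.02 and -0.16. The signs agreed for these 8 genes. For Dysf, Trim72, Capn3, Anxa2 and Anxa6 they had to, since the groups did not overlap, so this adds no further evidence. They were opposite for Cav3, at 0.0023 and -0.0985, and for Ehd2, at 0.087 and -0.185. With so few libraries on each side no test was made.

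Beyond the members, 58 other genes of membrane repair were read, of which 57 were matched by symbol (Vamp7 was not analysed here) and 50 had a mean of at least 1 FPKM. None of the 50 passed limma at an adjusted p under 0.05, the smallest being 0.58. At an unadjusted limma p under 0.05 there were 5 of the 50, against 1.65% of all genes higher and 4.25% lower. By sign 15 were higher and 35 lower, with a median log2 difference of -0.17, close to the -0.15 of all genes. On the median of ratios scale 24 were higher and 26 lower, where 49.6% of all genes were higher. Every L7 value lay above every control value in 5 of the 50, where 5.49% of all genes did, and below in 6 of the 50, where 13.7% did.

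**Figure D5:**
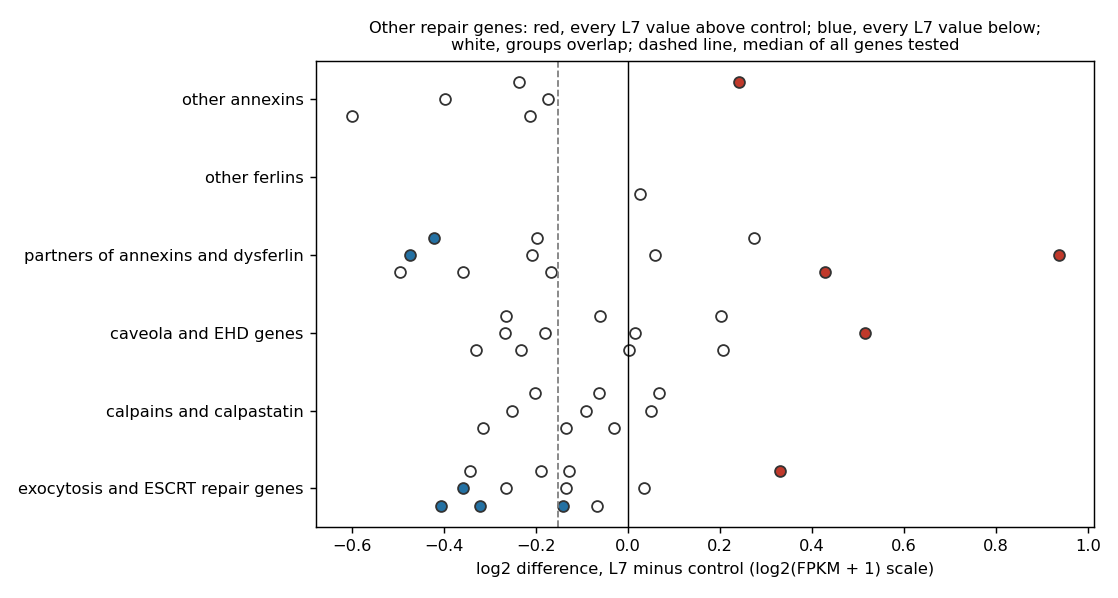
Log2 difference (L7 minus control) of the 50 other repair genes with a mean of at least 1 FPKM, one row per list; colour shows whether the libraries of the groups overlapped, and the dashed line is the median of all genes tested at -0.15. Sypl2 is farthest to the right at 0.94 and Anxa8 farthest to the left at -0.60.

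Among the 6 other annexins above the filter, 1 was higher and 5 lower, also on the median of ratios scale, but 3 were higher and 3 lower without L7 replicate 3 on that scale. Anxa4 was at 95.2, 85.4 and 40.8 FPKM in L7 libraries, against 97.9, 83.7 and 93.8 FPKM in control libraries, so that of the L7 libraries only replicate 3 lay outside the control range. Anxa3 and Anxa7 had log2 differences of -0.17 and -0.24, with overlapping groups. Anxa11, which has a long disordered tail and binds RNA granules, was at 17.8, 18.3 and 16.8 FPKM in L7 libraries, against 13.5, 15.5 and 15.4 FPKM in control libraries. It had every L7 library above every control library, and its log2 difference was 0.24 ± 0.13 (SE; adjusted p = 0.58 by limma). Of the other ferlins only Fer1l5 passed the filter, at 1.2, 1.48 and 1.08 FPKM in L7 libraries, against 1.23, 1.31 and 1.09 FPKM in control libraries. Otof, Fer1l4 and Fer1l6 were below 1 FPKM in every library.

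Of 11 partners of annexins and dysferlin 4 were higher and 7 lower, also on the median of ratios scale, but 6 were higher and 5 lower without L7 replicate 3 on that scale. S100a10, the partner of annexin A2, was at 243, 237 and 181 FPKM in L7 libraries, against 340.2, 281 and 293 FPKM in control libraries. It did not overlap, on the median of ratios scale either, and its log2 difference was -0.47 ± 0.18 (SE) with a limma adjusted p of 0.58, and -0.30 on the median of ratios scale without L7 replicate 3. Bin1, the membrane-bending protein of T-tubules, was at 383, 379.6 and 423 FPKM in L7 libraries, against 279, 302 and 299 FPKM in control libraries. Its log2 difference was 0.43 ± 0.15 (SE) with a limma adjusted p of 0.58, and 0.41 on the median of ratios scale without L7 replicate 3. The authors' deposited table gave it p = 0.043 before adjustment and 1 after it, and marked it as significant. S100a10 and Bin1 were named after their values were seen. The 4 partners of highest level, the galectins Lgals1 and Lgals3 and the calcium-binding proteins S100a11 and S100a6, had log2 differences of -0.21, -0.50, -0.42 and -0.36, and of these S100a11 alone had groups that did not overlap.

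Of 11 caveola and EHD genes 5 were higher and 6 lower, and on the median of ratios scale 6 were higher and 5 lower. Cav1, the caveolin of endothelium and connective tissue, was at 216, 223 and 214 FPKM in L7 libraries, against 322, 291 and 179 FPKM in control libraries, and overlapped. Pacsin3, a membrane-bending protein of muscle caveolae, was at 202, 203 and 303 FPKM in L7 libraries, against 149.6, 176 and 159.8 FPKM in control libraries. It did not overlap, and its log2 difference was 0.52 ± 0.20 (SE; adjusted p = 0.58 by limma). The coat gene Cavin1 and the EHD gene Ehd4 had log2 differences of 0.00 and 0.02. Of 9 calpain genes, counted with the inhibitor gene Cast, 2 were higher and 7 lower on FPKM as deposited, where 29.2% of all genes were higher, and all overlapped. On the median of ratios scale 6 were higher and 3 lower, with and without L7 replicate 3. The shared small subunit Capns1 and the ubiquitous Capn2 had log2 differences of 0.07 and -0.20, Capn6 had -0.31 and Cast -0.06. Of 12 exocytosis and ESCRT genes 2 were higher and 10 lower on FPKM as deposited, 6 were higher and 6 lower on the median of ratios scale, and 4 were higher and 8 lower without L7 replicate 3 on that scale. The lysosomal gene Lamp1 and the ESCRT-III gene Chmp4b had log2 differences of -0.07 and -0.36, the syntaxin gene Stx4a had -0.13 and the vesicle fusion gene Vamp2 -0.14. Chmp4b and Vamp2 were below every control library in all 3 L7 libraries, and on the median of ratios scale both overlapped.

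The genes whose profile over the 6 libraries came nearest to a member were looked up for Dysf and Anxa2, by the root mean square difference of centred log2(FPKM + 1). Genes much steadier than the member were left out, with no upper limit on spread. Nearest to Dysf, among the 12976 genes kept, were Ppcs, Sgms1 and Nr2f6, at 0.0184, 0.0224 and 0.0263. Nearest to Anxa2, among 8228 genes, were Dhx15, Cstf3 and Atad2, at 0.0420, 0.0434 and 0.0456. Dhx15 was at 55.7, 51.9 and 28.3 FPKM in L7 libraries, against 66.9, 59.1 and 57.5 FPKM in control libraries. Within the members, the profile nearest to Anxa2 was that of Anxa5 at 0.152 and the farthest that of Trim72 at 0.602. For Dysf the nearest members were Ehd2 and Anxa6, both at 0.121, and the farthest was Myof at 0.626. The SD of Dysf itself over the 6 libraries was 0.0979, so the distance of 0.121 does not show a shared profile. Anxa6 was below every control value in L7 libraries, where Dysf was above. These are descriptions over 6 libraries, of which L7 replicate 3 stands apart.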

How the data were processed

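The FPKM values were computed by the authors and deposited as 1 table of 52369 genes and 6 libraries. The authors also deposited a comparison table which, per the file headers, gives each group's mean signal (normalised reads) with the log2 fold between groups. Its p-values, raw and adjusted, were computed by the authors. The submitters' processing notes name, without roles, the build mm10 and the tools DESeq 1.12.0, HISAT2 2.0.4, Bowtie2 2.2.3 and TopHat2 2.0.12. The counter and its strand setting are not stated there. Whole reads per gene were recovered from both tables: all 89553 values below 200 reads came out within 0.05 of a whole number. Depth was 19420012 to 24663153 reads in genes per library.

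Genes averaging 1 FPKM or more (14788) were tested with limma 3.58.1 in R 4.3.3, two-sided, on log2(FPKM + 1) with the trend option. The Benjamini-Hochberg method adjusted over all of these genes, at a threshold of 0.05. The log2 differences understate changes of genes at low FPKM. The fit was checked on simulated data. Single members also had an exact permutation test. Python 3.11.15 with numpy 2.4.6, scipy 1.17.1, pandas 2.3.3 and matplotlib 3.10.9 made the tables and figures. Members and gene lists were chosen with earlier results of these data known. Genes named were all members, in each list of other repair genes those that passed limma or otherwise the 4 of highest mean FPKM, the 2 highest markers of each list, and the 3 nearest profiles of Dysf and of Anxa2. Sypl2, Anxa8, Anxa11, Bin1, Pacsin3, S100a10, Myog and Myh3 were named after their values were seen. The authors' enrichment tables were not used here.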

Additional observations from a re-analysis of the deposited data

How the results depend on the processing

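The counts of genes and of members called, and the members' log2 differences, were recomputed under 15 alternatives. No member was called in any of them, and the members' adjusted p-values lay between 0.387 and 0.997. Dysf, Trim72 and Capn3 were higher, and Myof, Anxa1, Anxa2 and Anxa5 lower, in L7 under all 15, with ranges of the log2 difference of 0.12 to 0.34, 0.29 to 0.56, 0.16 to 0.50, -0.82 to -0.01, -0.82 to -0.20, -0.70 to -0.19 and -0.53 to -0.15 in that order. The FPKM of Dysf, Trim72, Capn3 and Anxa2 did not overlap between the groups. Settings that only left out or reweighted libraries, or added a covariate, could therefore not change their signs. The other 3 members, Anxa6, Cav3 and Ehd2, changed sign. Anxa6 was at 0.0934 with median of ratios scaling and 0.10 with limma voom on recovered reads. Cav3 was at 0.11 with median of ratios scaling, 0.0543 with quantile normalization, 0.12 with voom and 0.0699 without control replicate 1. Ehd2 was at -0.0403 with array weights, -0.049 with sex as a covariate and -0.0881 without control replicate 3. Over all genes limma called 0 (873 at an unadjusted p under 0.05) and voom 0 (876), array weights called 3, leaving out 1 library called 0 to 1 (1 without L7 replicate 1), and median of ratios scaling without L7 replicate 3 called 1. Counts at an unadjusted p under 0.05 ran from 265 without control replicate 1 to 1635 without L7 replicate 1. Apart from the sign changes that follow from scaling, the cause was not tested. With the replicate number as a block 0 genes were called and the log2 difference of Trim72 stayed at 0.37 with an adjusted p of 0.504. Libraries of the same number deviated from their group means with correlations of 0.32, -0.07 and 0.09, and those of different numbers with -0.35 to 0.22. So few correlations, with L7 replicate 3 standing apart, cannot settle whether the numbers pair the libraries. The planned quasi-likelihood count test on recovered reads was not run. With 3 libraries a group the members' intervals are wide, and a p that misses the threshold does not show that the groups were alike.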
